A study of Saccharomyces cerevisiae with 20 samples.

Results

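The transcriptomes of W303 and BY4741, common laboratory strains of the budding yeast Saccharomyces cerevisiae, were compared in 8 of the 20 RNA-seq libraries of a study of 5 strains. The comparison set the 4 libraries of W303 against the 4 of BY4741, over all genes. Both are haploid strains labelled as mating type a. BY4741 was labelled his3Delta1 leu2Delta0 met15Delta0 ura3Delta0, and W303 as carrying the leu2 allele that combines mutations 3 and 112, together with ura3-1, his3-11,15, trp1-1 and can1-100. Cells of every strain were grown without treatment at 30 °C in synthetic complete medium with glucose and harvested in early exponential phase, at an optical density of 0.8 to 1.1. BY4741 descends from the strain of the reference genome and carries complete or partial deletions in its marker genes, whereas W303 has a partly different ancestry and carries small mutations in its markers. The other 3 strains (CEN.PK2, D273-10B and RM11-1a) entered the gene filter, the scaling, the length correction and the estimate of the spread of each gene. Their levels are quoted for some genes.

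Total counts were 2847050, 2507091, 5942018 and 12098393 in BY4741 replicates 1 to 4, and 22979469, 10654447, 1945194 and 4152414 in W303 replicates 1 to 4. The labels do not say whether the libraries of a strain came from separate cultures, so p-values measure only the spread between these libraries, which may be technical. The library numbers fall into series that start with 66 or 69, and each strain has 2 libraries in each series. The correlation of log2 CPM (counts scaled to a library total of 1000000) was 0.973 to 0.983 for libraries of the same strain and series, 0.939 to 0.966 for the same strain across series, and 0.922 to 0.962 for different strains in the same series. The last 2 ranges overlap, and the series is balanced between the groups. No libraries of a strain agreed within sampling noise, with a chi-square per degree of freedom of at least 13.4. All 8 libraries correlated best with a library of their own strain except BY4741 replicate 3, whose correlation was 0.984 with the library labelled RM11-1a replicate 2 and 0.983 with BY4741 replicate 4. The library labelled RM11-1a replicate 2 reached 0.941 with the others of its label, and all RM11-1a libraries had at least 76.9 CPM of MET17, a gene deleted in BY4741. D273-10B replicate 1 correlated best with W303 replicate 2 (0.941) and reached 0.866 with its own strain, but all D273-10B libraries had at least 42.7 CPM of TRP1, above all W303 libraries. CEN.PK2 replicate 2 correlated best with W303 replicate 3 (0.960, against 0.940 within its strain). Counts of calls are also given without these 3 libraries.

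The labels were checked with the genes of the mating types. The receptor gene STE2 of mating type a was at 592 CPM on average in BY4741 and 518 CPM in W303, and the a-factor gene MFA1 was at 94.2 and 106 CPM. The alpha-agglutinin gene SAG1 was at 3.32 and 4.29 CPM. By edgeR, 0 of the 7 a-specific and 0 of the 9 alpha-specific genes were called, with 1 and 2 at an unadjusted p under 0.05 (which 15.9% of all genes tested had). DESeq2 called 0 and 1 of them, against 289 of all 7127 genes. The alpha receptor gene STE3, at 8.46 CPM in BY4741 and 2.14 CPM in W303, had an edgeR adjusted p of 0.0622. HMLALPHA1 and MATALPHA1 had 0 counts in all 8 libraries, while HMLALPHA2 and MATALPHA2 were at 65.2 and 55.3 CPM in BY4741 and 45.2 and 39.5 CPM in W303. All 4 of these genes share their whole sequence with other mating type loci, so neither the counts nor the zeros can be placed at 1 locus.

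Of 6119 genes tested, 129 (2.11%) differed between the strains, and are called below, at an adjusted p under 0.05 (quasi-likelihood test of edgeR, Benjamini-Hochberg adjustment). In W303, 80 genes were higher (1.31% of those tested) and 49 were lower (0.801%). The calls included 5 of the 7 genes on the marker list, of which ADE2 has no allele in either label, 13 of 36 nitrogen and arginine genes, 12 of them higher in W303, and 3 of 21 heme-responsive genes, all higher. Among the lower genes were GPX2, ALD4 and ELO1, enzymes of peroxide, aldehyde and fatty acid metabolism. The change was at least 2-fold in 127 of the calls and at least 4-fold in 72, with a median log2 fold change of 2.22 for the higher and -1.92 for the lower genes. The 4 libraries of W303 did not overlap those of BY4741 in 123 of the called genes, against 1199 (19.6%) of all genes tested. The number of calls differed between fits. The same test on the 8 libraries alone called 778 of 5796 genes (13.4%), with 374 higher and 404 lower, so that 48.1% of the calls were higher instead of 62.0%. Fits without 1 of the 20 libraries, left out in turn, gave 66 to 197 calls, with 66 without BY4741 replicate 4, 68 without W303 replicate 3, 72 without W303 replicate 4, 73 without BY4741 replicate 3, 78 without BY4741 replicate 2 and 197 without D273-10B replicate 1. With the library labelled RM11-1a replicate 2 left out the count was 149, and without CEN.PK2 replicate 2 it was 136. In all 8 such fits that lacked a library of W303 or BY4741, 56 genes were called.

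**Figure D1:**
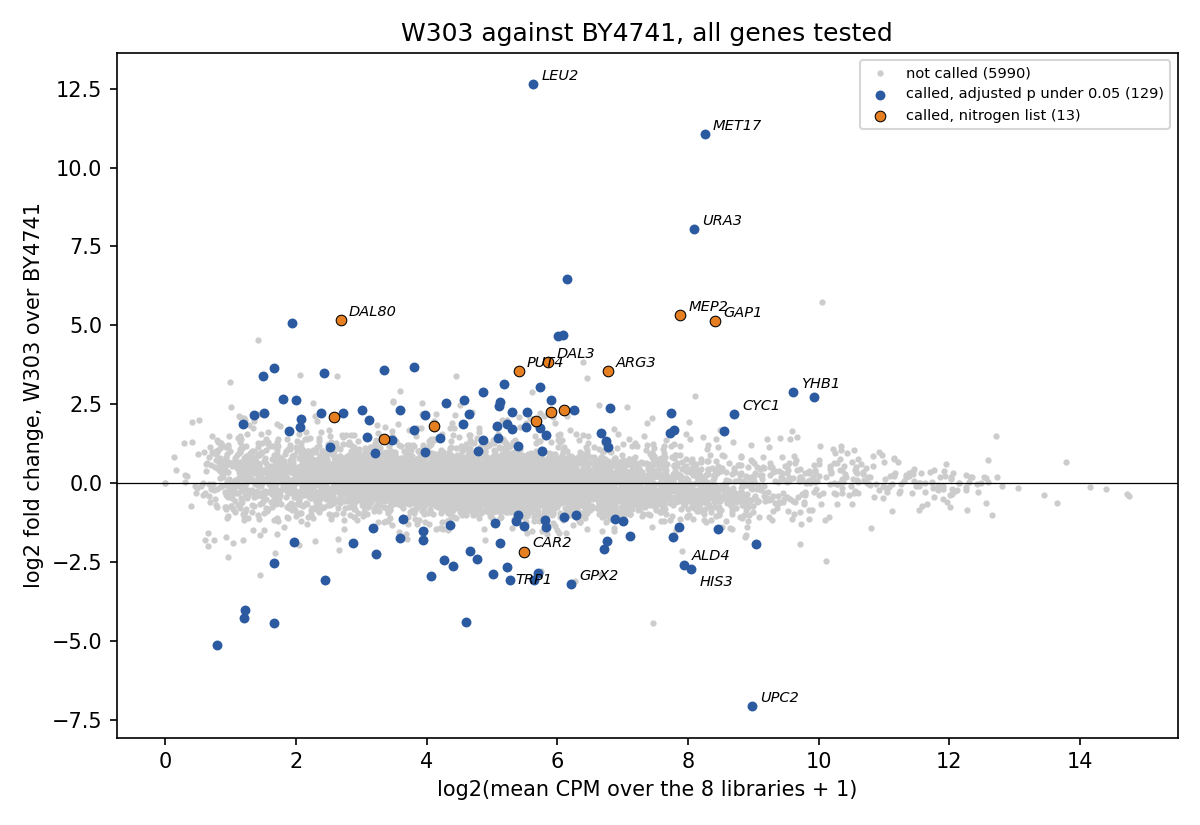
Log2 fold change of W303 over BY4741 for each of the 6119 genes tested (vertical axis) against the log2 of its mean CPM plus 1 over the 8 libraries (horizontal axis). The 129 called genes are coloured, 13 of them from the nitrogen list, which lie mostly above 0 and include MEP2 and GAP1 at more than 5 log2 units.

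The marker genes separated the strains most. MET17 is the gene of the met15Delta0 label and encodes O-acetylhomoserine sulfhydrylase of methionine synthesis, LEU2 serves leucine synthesis and URA3 uracil synthesis. All 3 are labelled as deleted in BY4741. MET17 (YLR303W, chromosome XII, 732542 to 733876, build R64) had 0.351, 0, 0.505 and 0.165 CPM in BY4741 replicates 1 to 4 and 590, 480, 787 and 578 CPM in W303. LEU2 (YCL018W, chromosome III, 91324 to 92418) had 0 counts in all 4 BY4741 libraries and 85.7, 61.1, 141 and 101 CPM in W303. URA3 (YEL021W, chromosome V, 116167 to 116970) had 3.16, 2.39, 0.337 and 2.4 CPM in BY4741 and 632, 747, 465 and 316 CPM in W303. The W303 label gives LEU2 and URA3 as mutated and not deleted. With 6 counts of MET17 in BY4741, the pooled ratio of W303 to BY4741 was 2220, with a 95% counting interval of 1020 to 6050. LEU2 was at least 129-fold higher in W303, against a floor of 3 counts per library, and URA3 was higher by a log2 fold change of 8.05 (adjusted p 3.91e-05 by edgeR, SE 0.955). MET17 overlaps the reading frame YLR302C, and strand-specific counting is not stated.

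HIS3, which encodes imidazoleglycerol-phosphate dehydratase of histidine synthesis, went the other way. It is labelled his3Delta1 in BY4741, an allele that removes only an inner part of the gene, and his3-11,15 in W303. HIS3 (YOR202W, chromosome XV, 721946 to 722608) had 598, 571, 387 and 271 CPM in BY4741 and 72.8, 74.4, 76.6 and 57.6 CPM in W303, with no overlap. Its log2 fold change was -2.73 (adjusted p 0.0033 by edgeR, SE 0.495). The W303 levels were also below the lowest library of each of the other strains, which had 166 to 976 CPM. TRP1 (YDR007W, chromosome IV, 461842 to 462516), for tryptophan synthesis, carries the trp1-1 mutation in W303 and is not mutated in the BY4741 label. It had 49.5, 69, 68.3 and 63.3 CPM in BY4741 and 8.49, 9.48, 13.4 and 9.63 CPM in W303, a log2 fold change of -2.67 (adjusted p 7.51e-06 by edgeR, SE 0.277). The other strains lay between 23.2 and 88 CPM. CAN1, the arginine permease labelled can1-100 in W303, had 14.4, 4.79, 4.04 and 7.36 CPM in BY4741 and 12.4, 16.5, 34.4 and 36.1 CPM in W303, so the groups overlapped. Its log2 fold change of 1.70 had an edgeR adjusted p of 0.067, which came under the threshold without BY4741 replicate 1 (0.0348), CEN.PK2 replicate 2 (0.0379), D273-10B replicate 1 (0.0433) or W303 replicate 1 (0.0479). ADE2, for which neither label lists an allele, had 189 ± 72.6 CPM in BY4741 and 143 ± 58.3 CPM in W303 (SD, n = 4), and its edgeR adjusted p was 0.734. TIM9, which encodes a small chaperone of mitochondrial import and lies beside URA3, was at 20.1 ± 2.36 CPM in BY4741 and 70 ± 23.5 CPM in W303 (SD, n = 4), which is 1.78 on the log2 scale (edgeR adjusted p 0.0408). Its call was lost in 11 of the 20 leave-one-out fits, with an edgeR adjusted p of up to 0.141 without W303 replicate 3. Those 11 left out any BY4741 library, W303 replicate 1, 3 or 4, CEN.PK2 replicate 2, D273-10B replicate 2, or RM11-1a replicate 1 or 4.

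**Figure D2:**
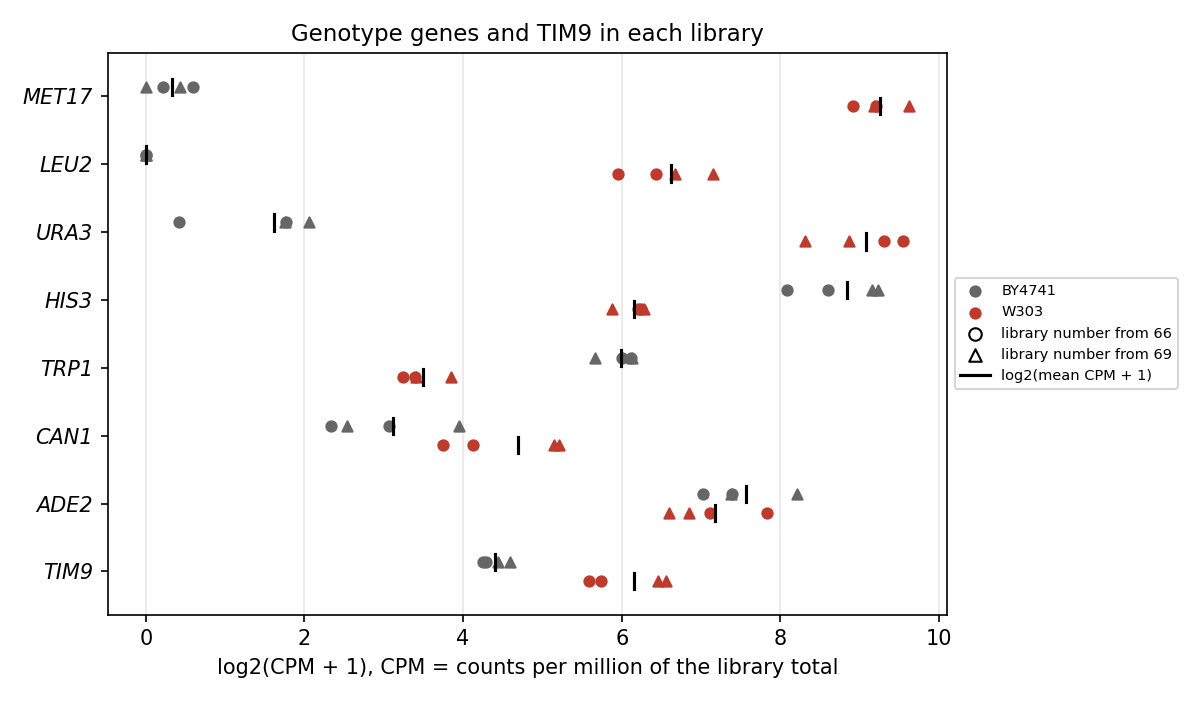
Log2 of CPM plus 1 in each library for the 7 genotype genes and TIM9, with BY4741 in grey and W303 in red, circles for library numbers from 66, triangles for those from 69, and a bar at the log2 of the mean CPM plus 1. MET17, LEU2 and URA3 are near 0 in BY4741, HIS3 and TRP1 are lower in W303, and CAN1 and ADE2 overlap.

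Nitrogen genes held more calls than any other of the 33 gene lists, which differ in size. By share of genes called, the genotype list was higher (71.4%). All lists were written with earlier results of these data known. In budding yeast, poor nitrogen sources are used only when preferred ones such as glutamine run short. The activators Gln3 and Gat1 then bind GATA motifs before genes for permeases and for the breakdown of proline, allantoin and urea, while Ure2 holds Gln3 back and Dal80 and Gzf3 compete for the same motifs. Of the 36 genes tested on the nitrogen list, which holds such genes together with genes of ammonium assimilation and of arginine synthesis and breakdown, 12 were higher in W303, 1 was lower and 23 were not called (36.1% called, against 2.11% of all genes). The median log2 fold change of the list was 0.89, against 0.04 over all genes. In the fit of the 8 libraries alone 16 were higher and 1 lower, against 6.45% and 6.97% of all genes. In RNA from a whole culture, fewer cells that use a gene and less RNA per cell cannot be told apart.

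The motif GATAAG, searched on both strands (CTTATC on the other) in the 600 bases before the start codon of the R64 reference sequence, was present at least once before 26.8% of 5986 genes, at least 2 times before 4.93% and at least 3 times before 0.702%. Of the 12 nitrogen genes that were higher in W303, 10 held it at least once and 8 at least 3 times, and PUT4 and ARG3 held none. Of the 23 that were not called, 16 held it at least once and 6 at least 3 times. Overlapping matches were counted separately. The stretches below carry the matches of the genes with the highest fold changes among those with 3 or more, with the matches in capitals, 5′ to 3′ along the strand of the gene. They lie at chrXIV:356978-357235 on the plus strand (MEP2, 7 matches), chrXI:514584-514836 on the plus strand (GAP1, 4 of its 5 matches), chrXI:506598-506686 on the plus strand (DAL80, 3 matches), chrIX:415639-415794 on the minus strand (DAL3, 5 matches) and chrVI:95715-95762 on the plus strand (GAT1, 4 matches). The strains' own sequences were not used here, so these letters are those of the reference.
MEP2: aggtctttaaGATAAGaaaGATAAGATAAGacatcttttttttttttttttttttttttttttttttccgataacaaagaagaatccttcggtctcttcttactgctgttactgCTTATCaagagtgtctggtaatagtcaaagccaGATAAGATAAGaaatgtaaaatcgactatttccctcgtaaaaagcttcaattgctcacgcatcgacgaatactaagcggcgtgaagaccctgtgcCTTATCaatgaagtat
GAP1: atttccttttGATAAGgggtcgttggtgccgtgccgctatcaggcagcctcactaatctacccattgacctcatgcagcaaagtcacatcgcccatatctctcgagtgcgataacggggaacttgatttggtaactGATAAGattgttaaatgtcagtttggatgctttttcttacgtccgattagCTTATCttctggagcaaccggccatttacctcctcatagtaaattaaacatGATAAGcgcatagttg
DAL80: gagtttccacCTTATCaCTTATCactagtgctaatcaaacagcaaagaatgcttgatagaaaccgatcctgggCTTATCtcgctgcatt
DAL3: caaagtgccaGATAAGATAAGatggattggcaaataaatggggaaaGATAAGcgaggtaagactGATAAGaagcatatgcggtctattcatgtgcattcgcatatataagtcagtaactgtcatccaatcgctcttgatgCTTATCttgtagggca
GAT1: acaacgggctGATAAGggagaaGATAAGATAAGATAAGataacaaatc

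Among the regulators, GAT1 itself (YFL021W, chromosome VI, 95966 to 97498) had 26, 16, 20.9 and 26.3 CPM in BY4741 and 95, 96.1, 137 and 125 CPM in W303. Every W303 library was above every BY4741 library, with a log2 fold change of 2.32 (adjusted p 0.0023 by edgeR, SE 0.402). DAL80 (YKR034W, chromosome XI, 506898 to 507707), the repressor, had 0, 0, 0.337 and 0.413 CPM in BY4741 and 11.4, 9.76, 12.3 and 9.15 CPM in W303. DAL80 had a log2 fold change of 5.17 (adjusted p 2.65e-05 by edgeR, SE 0.592), and no library of the other 3 strains exceeded 1.14 CPM. The remaining regulators were not called. GLN3 had 9.81 CPM in BY4741 and 17.3 CPM in W303 (edgeR adjusted p 0.377), GZF3 34.2 and 35.3 CPM, and URE2 99 and 97.7 CPM.

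All 3 ammonium permease genes were higher in W303. MEP2 (YNL142W, chromosome XIV, 357453 to 358952), the high-affinity ammonium permease that also signals to filamentous growth, had 13, 12.8, 7.91 and 11.2 CPM in BY4741 and 261, 281, 832 and 453 CPM in W303. The lowest W303 library was thus far above the highest BY4741 library. The change was 40.1-fold, a log2 fold change of 5.33 (adjusted p 1.02e-05 by edgeR, SE 0.57), and was 4.72 on the log2 scale within the libraries numbered from 66 and 5.60 within those numbered from 69. MEP1 (YGR121C) had 25.3, 18.7, 17.2 and 19.5 CPM in BY4741 and 80.8, 84.7, 119 and 105 CPM in W303, a log2 fold change of 2.25 (adjusted p 0.00295 by edgeR, SE 0.4). MEP3 (YPR138C) had 29.5, 17.6, 16.3 and 16.2 CPM in BY4741 and 47.8, 57.6, 125 and 88.6 CPM in W303. The groups did not overlap, but the MEP3 call was close to the threshold, with a log2 fold change of 1.99 (adjusted p 0.0453 by edgeR, SE 0.511). It was lost in 12 of the 20 leave-one-out fits, with an edgeR adjusted p of up to 0.153 without BY4741 replicate 4. Those 12 left out any BY4741 library, W303 replicate 2, 3 or 4, CEN.PK2 replicate 1 or 3, D273-10B replicate 2 or 4, or RM11-1a replicate 3.

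Of the amino acid permease genes, GAP1 and PUT4 rose and the others were not called. GAP1 (YKR039W, chromosome XI, 515063 to 516871), the general amino acid permease, had 34.8, 12.4, 10.9 and 16.8 CPM in BY4741 and 434, 734, 843 and 645 CPM in W303. The change was 35.4-fold, with a log2 fold change of 5.15 (adjusted p 3.58e-06 by edgeR, SE 0.502). Across the other 3 strains GAP1 did not exceed 17.8 CPM and MEP2 did not exceed 41.7 CPM, so the W303 levels of both lay above those of all 16 other libraries. PUT4 (YOR348C), the proline permease, had 5.62, 3.99, 7.57 and 7.69 CPM in BY4741 and 59, 53.2, 106 and 88.1 CPM in W303, a log2 fold change of 3.56 (adjusted p 0.000156 by edgeR, SE 0.468). Among the other strains PUT4 reached at least 19.6 CPM in all RM11-1a libraries and no more than 8.39 CPM in CEN.PK2 and D273-10B. AGP1, the broad-range amino acid permease, had 107 CPM in BY4741 and 409 CPM in W303 on average, and its log2 fold change of 1.94 was not called (edgeR adjusted p 0.0759). GNP1, AGP2, AGP3 and DIP5 were not called either, with log2 fold changes of 0.12 to 1.03.

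Some genes for the use of proline, allantoin and urea rose and others were not called. DAL3 (YIR032C, chromosome IX, 415030 to 415617), the ureidoglycolate lyase of allantoin breakdown, had 7.38, 4.39, 9.42 and 7.6 CPM in BY4741 and 119, 107, 113 and 89.1 CPM in W303. DAL3 had a log2 fold change of 3.83 (adjusted p 0.000102 by edgeR, SE 0.487), and the groups did not come near each other. PUT1, the proline oxidase, rose by 1.81 on the log2 scale (adjusted p 0.0033 by edgeR, SE 0.329). The allantoate permease DAL5 had a log2 fold change of 2.08 (edgeR adjusted p 0.0209) and the urea amidolyase DUR1,2 of 1.41 (edgeR adjusted p 0.0109). DAL5 lost its call in 6 fits that left out BY4741 replicate 2, 3 or 4 or W303 replicate 2, 3 or 4, with an edgeR adjusted p of up to 0.111. DUR1,2 lost it without BY4741 replicate 3 (0.0635) and without W303 replicate 1 (0.0544). The neighbours of DAL3 in the allantoin cluster were not called, with log2 fold changes of -0.16 for DAL1, 0.07 for DAL2, 0.17 for DAL4 and 1.06 for DAL7. Likewise PUT2, which follows PUT1 in proline breakdown, had a log2 fold change of 0.30 and the urea permease DUR3 of -0.64. The ammonium assimilation genes GDH1, with 422 CPM in BY4741 and 1210 CPM in W303, GLN1 and GLT1 were not called, with edgeR adjusted p of 0.124, 0.872 and 0.646.

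Of the arginine genes on the nitrogen list, ARG3 for synthesis was called higher and CAR2 for breakdown was called lower. ARG1, ARG4 and CAR1 were not called. Over all genes, 2.11% were called. ARG3 (YJL088W, chromosome X, 268799 to 269815), the ornithine carbamoyltransferase of arginine synthesis, had 14, 19.9, 15.5 and 17.3 CPM in BY4741 and 191, 170, 276 and 163 CPM in W303. This was a log2 fold change of 3.54 (adjusted p 0.000504 by edgeR, SE 0.519). ARG5,6 (YER069W), which encodes the acetylglutamate kinase and reductase, and ARG8 (YOL140W), the acetylornithine aminotransferase, are outside that list and were chosen with their values in view. ARG5,6 had 12.6, 7.18, 3.2 and 4.13 CPM in BY4741 and 29.8, 29.7, 67.3 and 69.8 CPM in W303, and ARG8 rose from 24.9 ± 2.36 to 126 ± 23.7 CPM (SD, n = 4). Their log2 fold changes were 2.90 (adjusted p 0.0023 by edgeR, SE 0.504) and 2.30 (adjusted p 0.00311 by edgeR, SE 0.414). The later enzymes ARG1 and ARG4 were not called, with log2 fold changes of 1.40 (edgeR adjusted p 0.139) and 0.89 (0.372). On the side of breakdown, CAR2 (YLR438W), the ornithine transaminase, had 53.7, 64.6, 82.6 and 84.9 CPM in BY4741 and 15.4, 11.7, 14.9 and 22.9 CPM in W303, a log2 fold change of -2.16 (adjusted p 0.033 by edgeR, SE 0.524). The groups did not overlap, and the call was lost in the 7 fits that left out any W303 library or BY4741 replicate 2, 3 or 4, with an edgeR adjusted p of up to 0.101. CAR1, the arginase, had 146 CPM in BY4741 and 99.8 CPM in W303 and was not called (edgeR adjusted p 0.272). ASN1, an asparagine synthetase also chosen with its values in view, had 75.1 ± 24 CPM in BY4741 and 352 ± 74 CPM in W303 (SD, n = 4), with an edgeR adjusted p of 0.0365 that rose to as much as 0.149 in each of the 8 fits that left out a library of these 2 strains.

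The sequence TGACTC, the core recognised by Gcn4, the activator of amino acid synthesis, is shown for ARG3, ARG5,6 and ARG8. Searched in the same way (GAGTCA on the other strand), it was present at least once before 15.3% of the 5986 genes and at least 2 times before 1.85%. The stretches lie on the plus strand of R64 at chrX:268351-268500 (ARG3, 2 matches), chrV:295177-295248 (ARG5,6, 2 matches) and chrXV:58569-58594 (ARG8, 1 match), with matches in capitals. Of the nitrogen list, 2 of the 12 genes that rose and 12 of the 23 that were not called held it at least once. It also stood before ARG1 (2 matches) and ARG4 (1 match), which were not called, and before CAR2 (1 match), which was lower. The motif was thus present before arginine genes that rose and before others that did not. Whether Gcn4 has a part in these levels was not tested.
ARG3: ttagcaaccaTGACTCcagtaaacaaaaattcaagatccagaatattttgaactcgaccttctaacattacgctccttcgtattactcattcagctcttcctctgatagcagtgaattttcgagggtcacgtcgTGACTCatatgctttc
ARG5,6: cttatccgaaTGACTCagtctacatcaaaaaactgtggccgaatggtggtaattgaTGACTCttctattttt
ARG8: gctcgctatgTGACTCacttaaagta

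**Figure D3:**
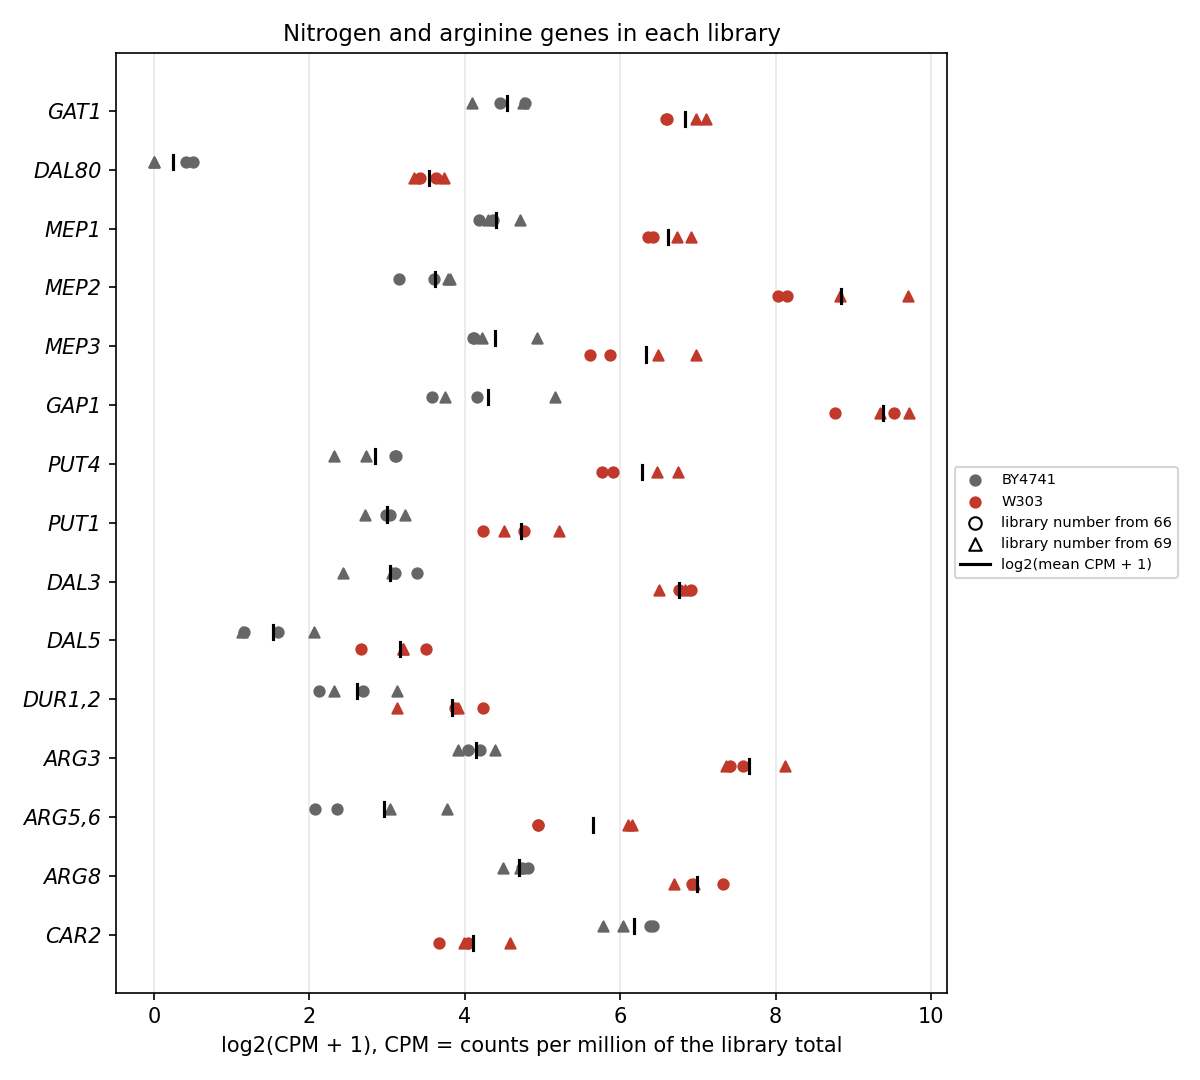
Log2 of CPM plus 1 in each library for the 13 called genes of the nitrogen list with ARG5,6 and ARG8, with BY4741 in grey and W303 in red, circles for library numbers from 66, triangles for those from 69, and a bar at the log2 of the mean CPM plus 1. All genes except CAR2 lie higher in W303, and DUR1,2 is the one gene of the figure in which libraries of the groups overlap.

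Of the genes for heme and oxygen use, YHB1, CYC1 and HMG1 were higher in W303 and the rest of the list was not called. Hap1 is a transcription factor that activates respiratory and sterol genes when heme is available, and BY4741 inherits from its reference ancestor a HAP1 gene interrupted by a Ty1 element. Of 21 Hap1 and heme-responsive genes tested, 3 were higher in W303 and 18 were not called (14.3% called, against 2.11% of all genes). The median log2 fold change of the list was 0.17. The fit of the 8 libraries called 5 higher and 3 lower, against 6.45% and 6.97% of all genes. The flavohemoglobin gene YHB1 (YGR234W, chromosome VII, 959904 to 961103), which detoxifies nitric oxide, had 207, 193, 158 and 175 CPM in BY4741 and 1520, 1330, 1520 and 1140 CPM in W303. It rose by a log2 fold change of 2.88 (adjusted p 0.00224 by edgeR, SE 0.497). YHB1 varied widely within other strains, at 183 to 1890 CPM in CEN.PK2, 428 to 3030 CPM in D273-10B and 324 to 863 CPM in RM11-1a. The lowest CEN.PK2 library thus lay within the range of BY4741. CYC1 (YJR048W), iso-1-cytochrome c, had 142, 146, 169 and 133 CPM in BY4741 and 655, 564, 897 and 625 CPM in W303, a log2 fold change of 2.18 (adjusted p 0.0146 by edgeR, SE 0.472). The BY4741 levels of CYC1 were also below those of all 12 libraries of the other strains, which had 344 to 1330 CPM. Its call was lost without W303 replicate 3 (0.0672), BY4741 replicate 4 (0.0642) or BY4741 replicate 2 (0.0531). HMG1, an HMG-CoA reductase of sterol synthesis, rose from 9.66 ± 4.61 to 35.3 ± 9.65 CPM (SD, n = 4), which is 1.89 on the log2 scale (adjusted p 0.00529 by edgeR, SE 0.362). The heme oxygenase HMX1, counted in the iron list, rose by 2.25 on the log2 scale (adjusted p 0.00132 by edgeR, SE 0.365). HAP1 itself was at 45.9 CPM in BY4741 and 21.6 CPM in W303 and was not called (edgeR adjusted p 0.123). HAP1, the ADP/ATP carrier gene AAC3 and SUT1, a regulator of sterol uptake, were the 3 lower genes of the fit of the 8 libraries, each without overlap of the groups, with log2 fold changes of -1.12, -1.21 and -0.86 there. CYC7, ROX1, HEM13 and ERG11 were not called, with log2 fold changes between -0.32 and 0.59. Whether HAP1 has a part in these levels was not tested.

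Nuclear genes of respiratory complexes II to V had higher levels in W303 on the median, but only COX6 passed the test. Of 39 tested, 1 was called (2.56%, against 2.11% of all genes). This was COX6 of cytochrome c oxidase, with 59.2 ± 7.43 CPM in BY4741 and 155 ± 18.9 CPM in W303 (SD, n = 4). COX6 had a log2 fold change of 1.35 (adjusted p 0.0241 by edgeR, SE 0.311). Its call was lost in the 6 fits that left out BY4741 replicate 1, 2 or 4 or W303 replicate 1, 3 or 4, with an edgeR adjusted p of up to 0.101. The median log2 fold change of the list was 0.80, against 0.04 over all genes, and the groups did not overlap in 22 of the 39 genes, against 19.6% of all genes. In the fit of the 8 libraries alone 23 of the 39 were higher and 0 lower, against 6.45% and 6.97% of all genes. An example in that fit was the Rieske protein gene RIP1, with 112 CPM in BY4741 and 291 CPM in W303 (log2 fold change 1.34, edgeR adjusted p 0.000741). Another was CYT1 for cytochrome c1 (1.19, 0.00117). The external NADH dehydrogenase gene NDE1, which is not a subunit of complexes II to V, was higher there too (1.90, 0.00223). In the fit of all 20 libraries the same 3 genes had edgeR adjusted p of 0.0829, 0.068 and 0.0513.

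The 49 genes lower in W303 included ALD4, MPC3 and GPX2. ALD4 (YOR374W, chromosome XV, 1039840 to 1041399), the mitochondrial aldehyde dehydrogenase, had 655, 426, 280 and 309 CPM in BY4741 and 61.2, 77.4, 72.5 and 71.5 CPM in W303. This was a log2 fold change of -2.58 (adjusted p 0.00224 by edgeR, SE 0.444). MPC3 (YGR243W), a subunit of the mitochondrial pyruvate carrier, had 97.6, 140, 14.1 and 18.8 CPM in BY4741 and 7.7, 6.1, 7.71 and 10.6 CPM in W303. The 2 BY4741 libraries numbered from 69 were thus several times above the 2 numbered from 66, which still lay above W303. The MPC3 log2 fold change was -3.08 (adjusted p 0.0116 by edgeR, SE 0.65), and the call was lost without BY4741 replicate 2 (0.066, log2 fold change -2.39), W303 replicate 2 (0.0536) or W303 replicate 3 (0.0541). GPX2 (YBR244W, chromosome II, 707528 to 708016), a glutathione peroxidase, had 113, 99.3, 172 and 140 CPM in BY4741 and 15.6, 19.2, 12.3 and 10.8 CPM in W303. It was 9.23-fold lower in W303, with a log2 fold change of -3.21 (adjusted p 0.000193 by edgeR, SE 0.436), and CEN.PK2 was low as well, at 22.1 to 33.9 CPM. Of the 31 genes of peroxide and thiol defence tested, GPX2 and the glutathione transferase GTT1 were lower and 29 were not called. This is 6.45% called, against 2.11% of all genes, with a median log2 fold change of -0.25. GTT1 had a log2 fold change of -1.40 (edgeR adjusted p 0.0432), and its call was lost in 11 fits, with an edgeR adjusted p of up to 0.161 without BY4741 replicate 3. Those 11 left out any W303 library, BY4741 replicate 2, 3 or 4, CEN.PK2 replicate 1 or 3, D273-10B replicate 2 or RM11-1a replicate 4.

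Further lower genes outside the lists were chosen with their values in view. ECI1 and SPS19 encode peroxisomal enzymes for the breakdown of unsaturated fatty acids. ECI1 had 53.7, 56.2, 34.8 and 31.7 CPM in BY4741 and 10.4, 9.2, 7.71 and 6.02 CPM in W303, a log2 fold change of -2.41 (adjusted p 0.00018 by edgeR, SE 0.323). SPS19 fell by 2.24 on the log2 scale (adjusted p 0.0033 by edgeR, SE 0.408). ELO1, the elongase of medium-chain fatty acids, had 852, 923, 822 and 724 CPM in BY4741 and 213, 299, 242 and 152 CPM in W303, a log2 fold change of -1.92 (adjusted p 0.00202 by edgeR, SE 0.324). SUR2, the sphinganine hydroxylase, had 507 ± 112 CPM in BY4741 and 192 ± 23.1 CPM in W303 (SD, n = 4, edgeR adjusted p 0.0383), and this call was lost in each of the 8 fits that left out a library of these 2 strains (up to 0.127). The quinone oxidoreductase gene ZTA1 fell by 1.90 (adjusted p 0.00566 by edgeR, SE 0.368) and the thymidylate synthase gene CDC21 by 1.38 (adjusted p 0.00311 by edgeR, SE 0.248). MSC1 had 167 ± 12.4 CPM in BY4741 and 47.9 ± 10.2 CPM in W303 (SD, n = 4, edgeR adjusted p 0.033), and its call too was lost in each of those 8 fits (up to 0.119). Other called genes of lipid metabolism went the opposite way. Besides HMG1 and the lipid droplet protein gene PLN1, the sterol acyltransferase gene ARE2, also chosen with its values in view, was higher in W303, with 3.53 ± 2.12 CPM in BY4741 and 18.6 ± 6.9 CPM in W303 (SD, n = 4). ARE2 had a log2 fold change of 2.33 (edgeR adjusted p 0.033), and its call was lost without BY4741 replicate 2, 3 or 4 or W303 replicate 3 or 4 (up to 0.116).

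**Figure D4:**
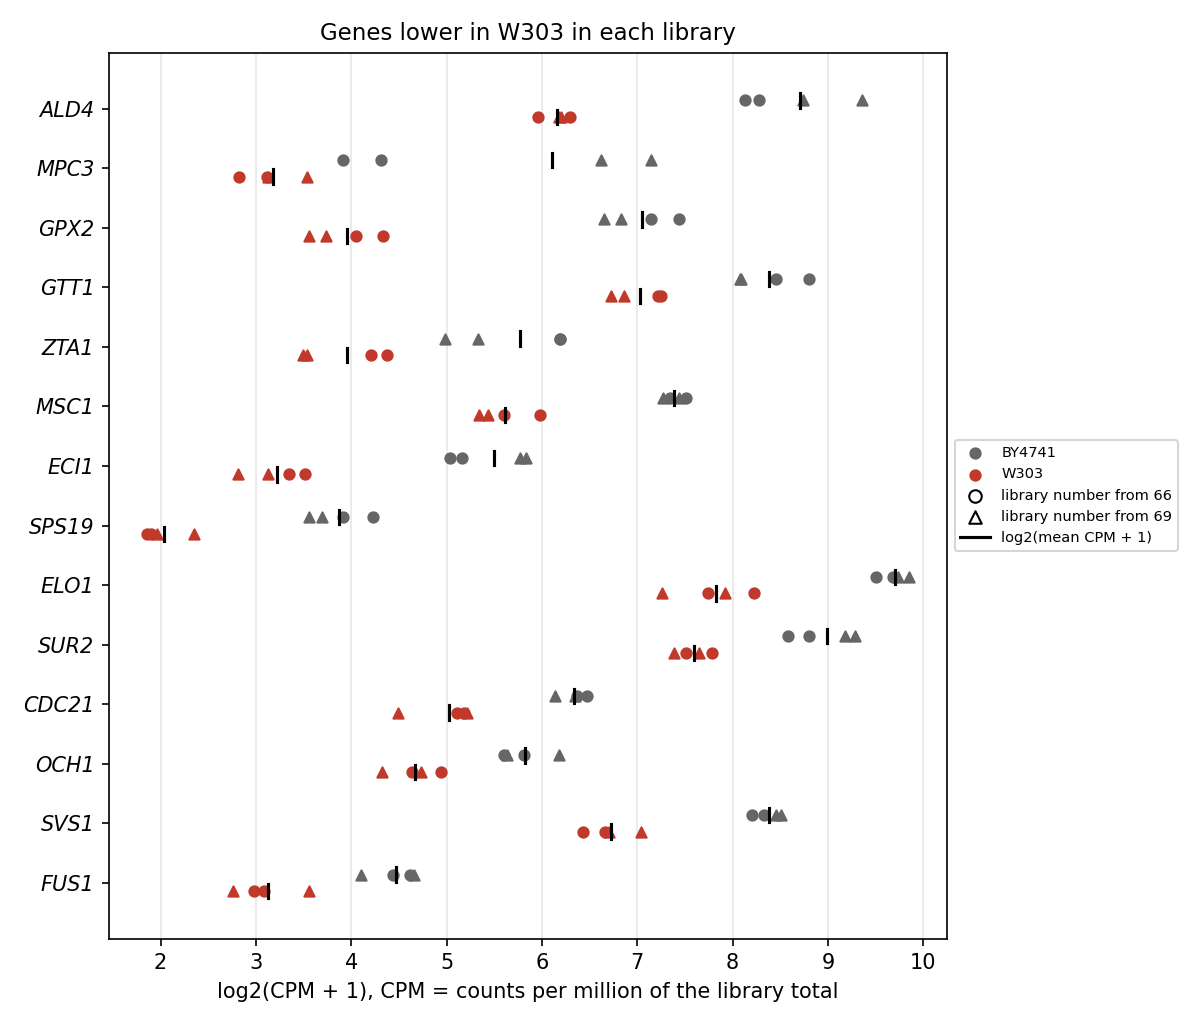
Log2 of CPM plus 1 in each library for 14 genes that were lower in W303, with BY4741 in grey and W303 in red, circles for library numbers from 66, triangles for those from 69, and a bar at the log2 of the mean CPM plus 1. The libraries of the strains do not overlap in any of these genes, and the BY4741 libraries of MPC3 fall apart by library number.

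Cell surface and signalling genes were called in both directions. SVS1, a cell wall protein gene, had 364, 351, 320 and 294 CPM in BY4741 and 85, 99.9, 131 and 103 CPM in W303, a log2 fold change of -1.70 (adjusted p 0.000829 by edgeR, SE 0.263). OCH1, the mannosyltransferase that starts outer chains of protein glycans in the Golgi, fell by 1.19 (adjusted p 0.00805 by edgeR, SE 0.24). KDX1, a kinase homologue linked to the cell wall stress pathway, had 7.73, 4.39, 4.38 and 5.04 CPM in BY4741 and 27.3, 35.6, 43.7 and 21.7 CPM in W303, a log2 fold change of 2.55 (adjusted p 0.000241 by edgeR, SE 0.353). SVS1, OCH1 and KDX1 were chosen with their values in view. Of 20 cell wall mannoprotein genes tested, PIR3 was higher, TIR1 was lower and 18 were not called (10.0% called, against 2.11% of all genes). PIR3 went from 24 ± 7.71 to 80.3 ± 7.51 CPM and TIR1 from 4.59 ± 1.2 to 1.25 ± 0.401 CPM (SD, n = 4), with edgeR adjusted p of 0.033 and 0.0347. PIR3 lost its call without any W303 library or BY4741 replicate 2, 3 or 4 (up to 0.141), and TIR1 without replicates 2, 3 or 4 of either strain (up to 0.134). In the pheromone response pathway, 1 of 26 genes was called (3.85%, against 2.11% of all genes). FUS1, a membrane protein for the fusion of mating cells, had 16.2, 24.3, 23.6 and 20.7 CPM in BY4741 and 6.88, 7.51, 10.8 and 5.78 CPM in W303, a log2 fold change of -1.53 (adjusted p 0.00805 by edgeR, SE 0.309).

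Some of the largest rises were uneven within W303. SML1 (YML058W), the inhibitor of ribonucleotide reductase, had 4.92, 3.99, 1.18 and 8.93 CPM in BY4741 and 15.4, 45.6, 187 and 240 CPM in W303. RPS20, a ribosomal protein gene chosen with its values in view, had 222, 252, 295 and 241 CPM in BY4741 and 500, 1600, 2130 and 2590 CPM in W303. In both genes all W303 libraries lay above BY4741, and the W303 libraries numbered from 69 (replicates 3 and 4) lay above those numbered from 66. Within the 66 and 69 series the log2 fold changes were 2.38 and 5.57 for SML1 and 1.86 and 3.31 for RPS20. Over all libraries they were 4.65 (adjusted p 0.00566 by edgeR, SE 0.9) and 2.73 (adjusted p 0.0109 by edgeR, SE 0.573), and RPS20 lost its call without BY4741 replicate 4 (0.0526). In sulfate assimilation and methionine synthesis, a list without MET17, 1 of 38 genes tested was called (2.63%, against 2.11% of all genes). This was MET13, a methylenetetrahydrofolate reductase. It had 11.6, 7.98, 1.85 and 8.1 CPM in BY4741 and 17.5, 40.2, 95.6 and 101 CPM in W303, a log2 fold change of 3.13 (adjusted p 0.0106 by edgeR, SE 0.651). SWP1, a subunit of the oligosaccharyltransferase, had 2.11, 2.39, 0.505 and 1.07 CPM in BY4741 and 2.65, 3.57, 29.8 and 31.5 CPM in W303, and its call was lost without replicate 3 or 4 of either strain (edgeR adjusted p of up to 0.0981).

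A single library made the call of UPC2 (YDR213W, chromosome IV, 889751 to 892492), the activator of sterol synthesis. It had 10.9, 6.38, 3.7 and 3990 CPM in BY4741 and 14.4, 4.22, 2.57 and 6.74 CPM in W303. Without BY4741 replicate 4 its log2 fold change went from -7.07 to 0.09 and its edgeR adjusted p from 0.0303 to 0.968, and the call was also lost without any W303 library (up to 0.109). No other of the 22 ergosterol genes tested was called (4.55% called, against 2.11% of all genes). That list does not hold HMG1, which was called higher and is on the heme list.

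Several calls lay near each other on the chromosomes. On the right arm of chromosome XIV, 8 of 15 annotated genes between 742881 and 781040 were called, 4 higher and 4 lower. Of all genes tested, 2.11% were called. Runs were drawn from the calls and start and end at called genes, so a high share within a run is built in. YNR061C was lower, with 176, 177, 173 and 143 CPM in BY4741 and 43.5, 50.1, 38.6 and 31.1 CPM in W303 (log2 fold change -2.07, adjusted p 0.000819 by edgeR, SE 0.318). DSE4, a glucanase that helps daughter cells to separate, was higher, by 1.44 (adjusted p 0.011 by edgeR, SE 0.303), but not without BY4741 replicate 3 (0.0632) or W303 replicate 4 (0.0647). The ABC transporter gene PDR18, YNR071C and the cell death factor gene AIF1 were low in BY4741 and lower still in W303. None of them passed the filter in the fit of the 8 libraries. YNR071C had 0.702, 2.79, 1.01 and 1.32 CPM in BY4741 and 1 count in all W303 libraries together. PDR18 had 5.62, 5.19, 1.68 and 4.3 CPM in BY4741 and 0.174, 0.188, 0 and 0.241 CPM in W303, and its call (edgeR adjusted p 0.0228) was lost without any W303 library or BY4741 replicate 2 or 4 (up to 0.0933). AIF1 had 2.81, 3.59, 1.68 and 2.07 CPM in BY4741 and 5 counts in all 4 W303 libraries together. Its pooled ratio of BY4741 to W303 was 17.7, with a 95% counting interval of 7.1 to 56.7. In CEN.PK2 and D273-10B, AIF1 and YNR071C did not exceed 0.693 and 0.249 CPM. In RM11-1a they were at 1.19 to 2.8 and 0.653 to 1.85 CPM. YNR066C, YNR068C and COS10 in the same run were higher in W303, all at 9.39 CPM or less. COS10 (edgeR adjusted p 0.0387) lost its call in 7 of the 20 leave-one-out fits, those without replicate 2, 3 or 4 of either strain or CEN.PK2 replicate 1 (up to 0.153), and with a correction for gene length (0.0523). YNR068C lost its call without BY4741 replicate 3 or 4 or W303 replicate 3 (up to 0.0805), and YNR066C without BY4741 replicate 3 or 4 (up to 0.0775). Shorter runs joined MEP1 with YGR126W and YGR127W on chromosome VII, and DAL80 and GAP1 with PLN1 on chromosome XI between 506898 and 525074. YGR126W lost its call without BY4741 replicate 1, 3 or 4 or W303 replicate 2 or 3 (edgeR adjusted p of up to 0.0988). YGR127W had 138, 94.5, 42.2 and 76.9 CPM in BY4741 and 10.1, 13.2, 11.3 and 7.95 CPM in W303, and PLN1 rose from 176 ± 34.1 to 569 ± 64.8 CPM (SD, n = 4). Of the 124 called genes with a position, 18 (14.5%) lay within 30 kb of a chromosome end, against 5.87% of the genes tested. Neighbouring genes of the chromosome XIV run were counted singly among these 18. PAU1 and PAU14, at such ends, share their whole sequence with other genes, so their rise in W303 cannot be assigned to either, and AQY2, which lost its call without BY4741 replicate 4 (edgeR adjusted p 0.0641), overlaps YLL053C.

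Several gene lists held no call by edgeR over 20 libraries. In the following counts, an unadjusted p under 0.05 was found for 15.9% of all genes, and the fit of the 8 libraries called 6.45% of all genes higher and 6.97% lower. DESeq2 called 289 of all 7127 genes. Among 21 genes of purine synthesis 0 were called, 2 had an unadjusted p under 0.05 and DESeq2 called 1, while the fit of the 8 libraries called 4 lower and 0 higher. These were ADE1, MTD1, SHM2 and ADE17, with log2 fold changes of -0.74 to -1.21 in that fit. Of 13 genes of pyrimidine synthesis and uracil uptake 0 were called, with 2 at an unadjusted p under 0.05, 0 by DESeq2 and, in the fit of the 8 libraries, 1 higher and 2 lower. The counts for 7 genes of histidine synthesis and uptake were 0, 2 and 1, with 1 higher and 0 lower in the fit of the 8, and for 16 genes of aromatic amino acid synthesis they were 0, 4 and 0, with 3 higher and 2 lower. The 14 genes of branched-chain amino acid synthesis also held 0 calls, but 8 had an unadjusted p under 0.05, DESeq2 called 3 and the fit of the 8 libraries called 5 higher and 1 lower. The median log2 fold change of this last list was 0.87. Its members ILV3, a dehydratase gene, with 70.6 CPM in BY4741 and 481 CPM in W303, and BAT2, an aminotransferase gene, with 167 and 64.1 CPM, had edgeR adjusted p of 0.171 and 0.0759 over 20 libraries and 0.028 and 0.00137 in the fit of the 8. Trehalose and glycogen genes held 0 calls of 19, with 4 at an unadjusted p under 0.05 and 3 by DESeq2, and the fit of the 8 libraries called 0 higher and 4 lower. One of those was UGP1, for UDP-glucose, with 595 CPM in BY4741 and 222 CPM in W303 (edgeR adjusted p 0.00592 in that fit). In the 25 genes of the TCA and glyoxylate cycles, edgeR called 0 and DESeq2 2, with 2 at an unadjusted p under 0.05 and 1 higher and 2 lower in the fit of the 8. In 10 histone genes edgeR and DESeq2 called 0, 0 had an unadjusted p under 0.05, and the fit of the 8 called 0 higher and 2 lower.

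The trend of levels with gene length was followed in each library, since it differs between libraries of a strain. The slope of log2 CPM (as deviation from the mean of the 8 libraries) for each doubling of the exon length was 0.130, -0.040, -0.176 and -0.039 in BY4741 replicates 1 to 4, and 0.047, 0.095, -0.016 and -0.001 in W303. The BY4741 slopes spanned the whole range of the W303 slopes. Their means were -0.031 ± 0.125 and 0.031 ± 0.05 (SD, n = 4), a difference of 0.063 with an exact two-sided permutation p of 0.4, where 0.0286 is the smallest that 4 against 4 libraries allow. Without BY4741 replicate 3 the difference was 0.014, and without BY4741 replicate 1 it was 0.117. The median log2 fold change still moved with length, from -0.05, -0.16 and -0.08 in the 3 bins of shorter genes to 0.28 and 0.21 in the 2 bins of longer genes, with 1148 to 1160 genes in a bin. Taking out each library's smooth length trend brought these medians to between -0.01 and 0.12 and raised the calls from 129 to 361 (5.9% of the genes), of which 220 were higher in W303 (3.6%). Of the 129 calls, 124 were kept with the correction. The median length was 1230 bases for the genes tested, 1107 for those called higher and 937 for those called lower. MEP2, GAP1, DAL80, DAL3, ARG3, YHB1, CYC1, GPX2 and ALD4 were all called with the correction.

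**Figure D5:**
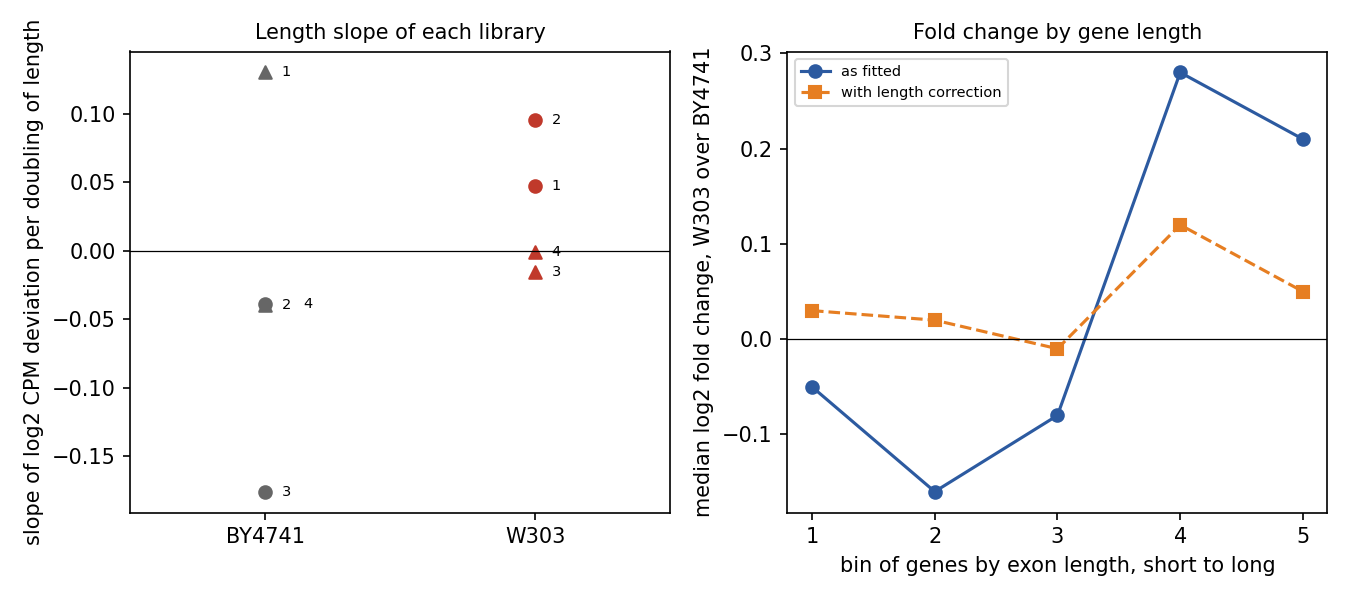
Left, the slope of the deviation in log2 CPM for each doubling of gene length in the 8 libraries, numbered by replicate, with circles for library numbers from 66 and triangles for those from 69. Right, the median log2 fold change of W303 over BY4741 in 5 bins of genes by exon length, as fitted (-0.16 to 0.28) and with the length correction (-0.01 to 0.12).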

How the data were processed

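Read counts per gene were used as deposited, whole numbers that the authors did not normalize, listed under Ensembl 109 identifiers, per the file headers. STAR and Salmon are named in the submitters' processing notes; the settings, the build and strand use are not given in the sources used here. Per the labels' protocols, libraries followed Smart-seq2 from 100 ng of RNA and were read as single-end reads of 75 bases, and no molecular identifiers are mentioned. Of 7127 genes, 6047 were matched to the RefSeq annotation of R64.

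The members and gene lists were chosen with earlier results of these data known. Genes were filtered with filterByExpr, scaled by TMM and tested with edgeR 4.0.16 in R 4.3.3 in 1 quasi-likelihood model of all 20 libraries with the strain as its only term and 15 residual degrees of freedom. Benjamini-Hochberg adjustment ran over all genes tested, and standard errors come from the F statistic. CPM is the share of a library's total count. A floor of 3 counts per library is 0.131 to 1.54 CPM in these 8 libraries, and floors and intervals cover counting error only. Named genes were drawn from the genotype and mating type lists, the 15 largest non-overlapping changes in each direction, called list members and genes in runs of 3 or more calls. A further 20 were picked with their values in view. Not all of these are described above. Left out were, among others, YOR387C, the largest rise outside the marker genes (log2 fold change 6.48, edgeR adjusted p 0.000819), and YOR203W (-4.40, 0.00224). Length trends were fitted per library by a spline with 4 degrees of freedom. The procedures were tested on simulated data. Alternatives were DESeq2 1.42.0, other scaling and filters, 8 libraries, library series or replicate number as a block, length and GC corrections, thinning, and leaving out each library.

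Replicate numbers are shared by the strains but do not mark a shared day or culture in the labels.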

Additional observations from a re-analysis of the deposited data

Results flagged for a closer look

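In 7 cases a BY4741 library lay far from the other 3 of its strain for a named gene, by a test that flags about 1 in 20 groups by chance. With 62 genes named by the rule and 20 more, several such cases would arise by chance. UPC2 was at 3990 CPM in BY4741 replicate 4 and at 3.7 to 10.9 CPM in the others. In BY4741 replicate 1, MEP3 was at 29.5 CPM against 16.2 to 17.6, GIT1, a glycerophosphoinositol permease gene, at 3.51 CPM against 1.35 to 1.6, and the phosphatase gene PTP2 at 13.0 CPM against 8.51 to 9.17. YNR061C was at 143 CPM in BY4741 replicate 4 against 173 to 177. PAU1 and PAU14 were each at 0.0 CPM in BY4741 replicate 2 against 0.331 to 0.351 in the others, which is a difference of few counts in genes that share their sequence.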

How the results depend on the processing

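The 129 calls became 289 with DESeq2 as the test, 778 in the 8 libraries alone, 1539 there with the library series as a block, 1077 and 825 within the libraries numbered from 66 and from 69, 212 with the series as a block, 361 with the length correction, 385 with length and GC, 305 with length and the replicate block, 921 in the 8 libraries with the length correction, 71 after thinning to 1311322 counts, and 390 with a length correction that was not centred, an alternative chosen after seeing the data. Leaving out each library gave 66 to 197. The share of higher calls, 62.0%, was 48.1% in the 8 libraries, 49.4% there with the series block, 49.1% and 50.5% within the series, and 46.4% without centring. DESeq2 size factors gave 125 calls, no filter 116 and a mean of at least 10 CPM 99. The cause of these shifts was not tested. The replicate block gave 118 calls. Deviations of W303 and BY4741 libraries with the same number correlated at -0.38 to -0.12, but all such pairs lie in different series. Pairs of the strains within a series correlated at 0.15 to 0.37, and those across series at -0.38 to -0.1. Whether the numbers pair the libraries therefore cannot be told from these values. The log2 fold change of ADE2 turned from -0.42 to 0.20 within the libraries numbered from 66, and that of UPC2, -7.07, ran from -7.72 to 0.09 over the fits that left out 1 library, with 0.09 without BY4741 replicate 4, while no other called gene named here changed sign. Of the mating type genes, which were not called, the length correction turned MFA1 from 0.16 to -0.35, BAR1 from 0.05 to -0.11 and MF(ALPHA)1 from -0.10 to 0.10. The difference in length slope stayed between 0.014 and 0.117. The thinnest library of these strains, W303 replicate 3, limits what can be seen of genes at or under 1.54 CPM.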
